A study of Mus musculus with 6 samples.

Results

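Keratins, desmosome proteins and proteins of the cornified envelope were followed in 6 mouse mammary tumours, 3 grown from control cells and 3 from cells with a knockdown (KD) of Bptf. The members were chosen by gene symbol: all keratins, the desmogleins and desmocollins, the small proline-rich proteins (Sprr), and 13 further genes of the desmosome, the envelope and the stratified epithelium. They came to 91 of 22690 probe sets, or 66 of the 12393 genes that had a probe set of their own. Of the 66 genes, 34 had a mean log2 value of at least 6.09, the level below which the lowest 30% of probe sets lie. These 34 were tested, and the other 32, called dim here, are given by their values only. A gene that is high in 1 group or 1 tumour can pass this limit through that group alone, so counts over the 34 are descriptions.

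Keratins form intermediate filaments from pairs of a type I and a type II chain, and the pair tells the kind of epithelium. Krt8 pairs with Krt18 in simple, single-layered epithelium such as the luminal layer of the breast, Krt5 pairs with Krt14 in basal cells, and Krt1 pairs with Krt10 in the layers above the basal layer of the epidermis. The filaments are anchored at desmosomes, where desmogleins and desmocollins bridge the gap between cells and plakoglobin (Jup), plakophilins and desmoplakin (Dsp) tie them to keratin. In the epidermis, proteins such as loricrin (Lor), involucrin (Ivl) and the Sprr proteins are cross-linked under the membrane of dying cells into the cornified envelope.

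The tumours were grown from 4T1 cells, a mouse mammary carcinoma line. Control or Bptf KD cells (10000 per injection) grew in the fourth mammary fat pad, in mice of the NSG strain labelled Ifrg2r -/-, and the tumours were collected after 21 days. Short hairpin RNAs delivered by a retrovirus lowered Bptf, the largest subunit of the chromatin remodelling complex NURF, in the KD cells. The sources used here do not say what the control cells carried. Mice of this strain have no mature lymphocytes (T, B or natural killer), but keep skin, muscle, fat, fibroblasts and myeloid cells, so each piece of tumour is a mixture. Lower or higher RNA of a gene in such a piece cannot be told apart from fewer or more cells of a type.

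The tumour labelled control 2 stood apart. Its correlation with the other arrays across the genes tested was at most 0.942, while the highest correlations of the other 5 lay between 0.985 and 0.988. Its Bptf values on 3 of 4 probe sets lay below those of every Bptf KD tumour, at 7.59 against 8.37 to 9.15, 5.41 against 6.37 to 6.53 and 6.88 against 7.27 to 7.37. The target therefore went against its label, and directions drawn below count it among the controls unless stated. All 19 skeletal muscle markers with a probe set exceeded the mean of controls 1 and 3 by 2-fold or more in that tumour. The share over all genes was 3.06%. The mean over the 18 muscle markers tested was 11.3 there, against 6.30 to 9.13 in the other 5. For Actb, whose 3-prime and 5-prime ends have control probe sets, 3-prime minus 5-prime was 1.23 there and 0.76 to 1.05 in the others (log2). For Gapdh the same measure differed little, at 0.06 there and -0.08 to 0.04 in the others. The part that these differences have in the results below was not tested, and each result is given with and without that tumour where it matters.

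Bptf KD tumours were set against controls to ask how epithelial genes differ with less Bptf in the 4T1 cells. None of the 34 members tested passed the threshold over all genes. Limma called 0 of the 34 at an adjusted p under 0.05, against 0.811% of the 9249 genes tested, and 3 of the 34 were higher at an unadjusted p under 0.05, against 7.65% of all genes. These 3 were the desmosomal genes Dsc2, Dsg2 and Jup. No member was lower at that level, against 5.82% of all genes. Of the 34, 12 had a positive difference, against 59.6% of all genes, and 14 without the tumour labelled control 2, against 56.0%. The median difference (log2 Bptf KD minus control) was -0.105 over the 34 and 0.0600 over all genes tested. Without the tumour labelled control 2, 1 member (Dsc2) was called, against 4.45% of all genes. At an unadjusted p under 0.05, 6 members were then higher (Krt14, Krt10, Dsc2, Dsg2, Jup and Perp), against 16.0% of all genes, and 1 was lower (Krt5), against 1017 of the 9249 genes. The median over the 34 was then -0.035.

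**Figure D1:**
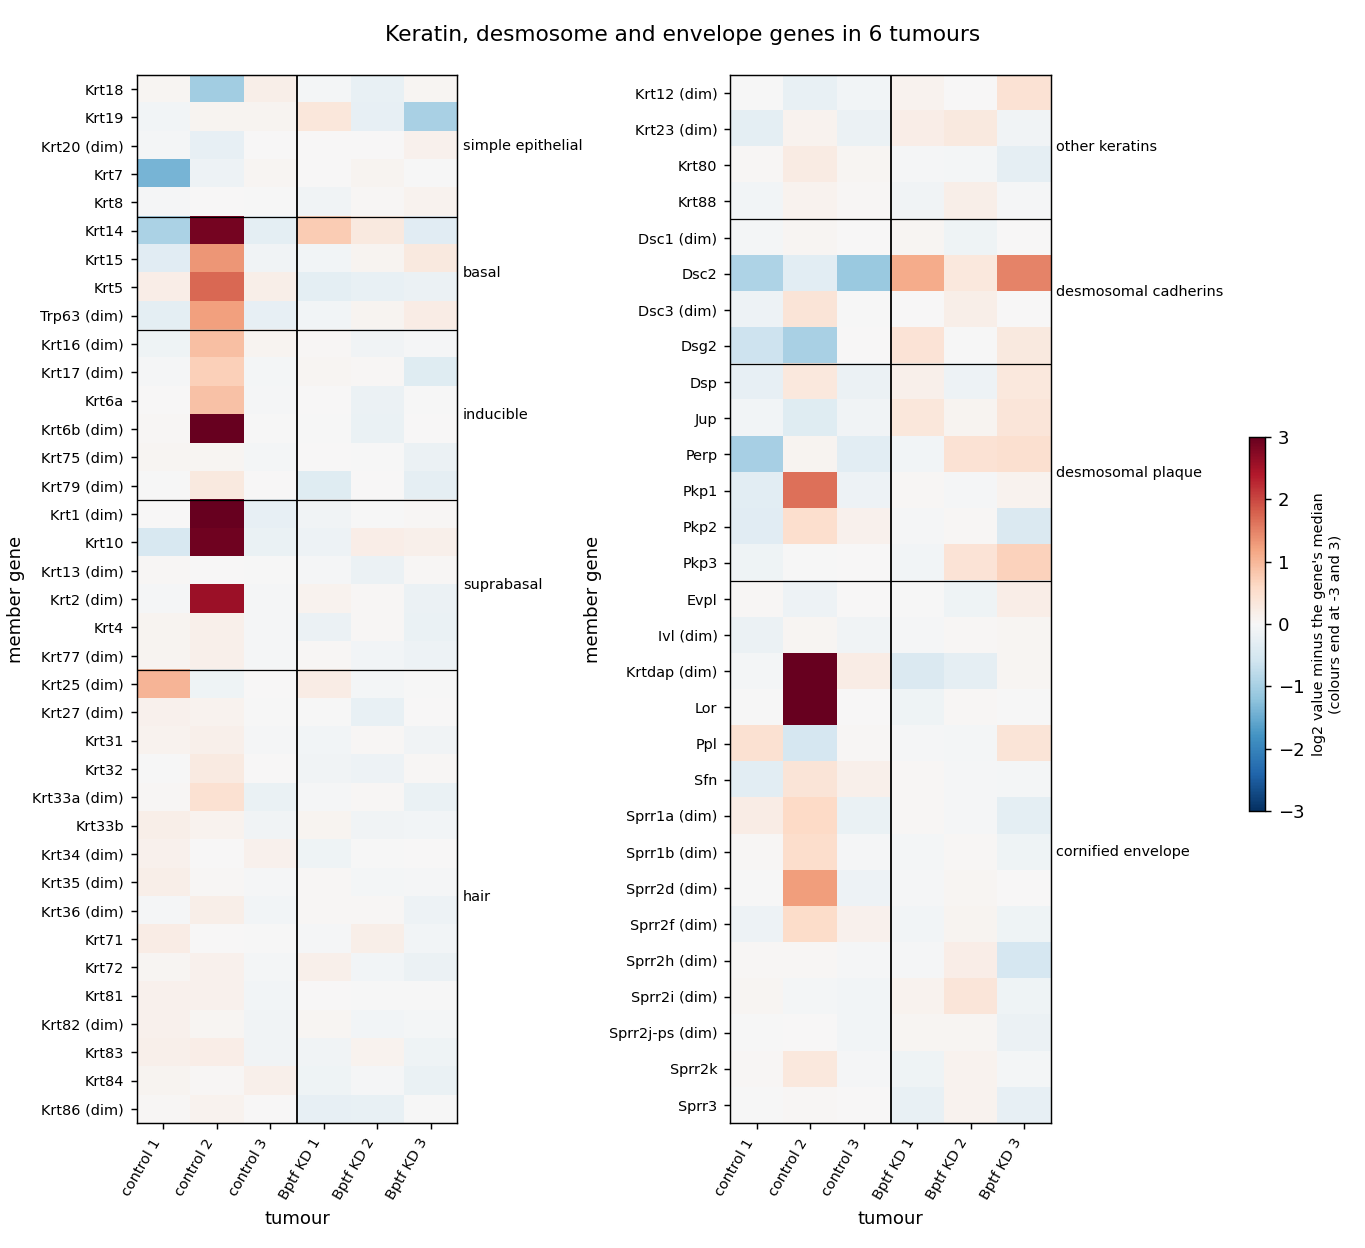
Each cell is the log2 value of 1 member gene (row, named on the vertical axis) in 1 tumour (horizontal axis) minus that gene's median over the 6 tumours, with red for higher and blue for lower values and classes named at the right. Genes marked dim have a mean below 6.09. The column of control 2 is darkest red in Krt14, Krt6b, Krt1, Krt10, Krt2, Krtdap and Lor and pale in Krt75, Krt13 and Krt77, and Dsc2 is red in the 3 Bptf KD tumours.

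Of the 5 simple epithelial keratins, 4 were above the dim level in every tumour, and Krt8, the main type II chain of luminal cells, varied least among these 4. The log2 value of Krt8 was 14.00, 14.04 and 14.03 in controls 1, 2 and 3, beside 13.92, 14.07 and 14.15 in Bptf KD tumours 1, 2 and 3. The groups overlapped, and the difference of 0.02 had a 95% confidence interval from -0.25 to 0.30 (limma). All 3 of its probe sets gave differences between 0.02 and 0.05.

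Krt18, the partner chain of Krt8, had values of 13.70, 12.60 and 13.82 in the controls and of 13.58, 13.41 and 13.71 in Bptf KD tumours. The tumour labelled control 2 was the low one, 1.16 below the mean of controls 1 and 3, while Krt8 there was 0.025 above it. The group difference of Krt18 was 0.19 (SE 0.32, adjusted p = 0.849 by limma), and without that tumour it was -0.19, of opposite sign.

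Krt7, a keratin of luminal and ductal cells, had values of 10.44, 11.69 and 11.89 in controls and of 11.85, 11.92 and 11.82 in Bptf KD tumours. Here control 1 was the low tumour and the other 5 lay within 0.23 of each other. Limma gave a difference of 0.52 (SE 0.36, adjusted p = 0.615), and it was 0.07 without control 1. Krt19, another simple epithelial keratin, ran from 8.62 to 8.80 in controls and was 9.04, 8.46 and 7.74 in Bptf KD tumours, so that the lowest and the highest value both came from Bptf KD tumours. Its difference of -0.33 (SE 0.31) did not pass (limma adjusted p = 0.717). Krt20, an intestinal and urothelial keratin, was dim at 5.53 to 5.89.

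Basal keratins followed the tumour labelled control 2 more than the group. Krt14, the type I basal keratin, had values of 7.51, 11.32 and 8.16 in controls and of 9.21, 8.76 and 8.11 in Bptf KD tumours. The tumour labelled control 2 was 11.2-fold above the mean of controls 1 and 3, and its second bright probe set gave an excess of 3.56 on the log2 scale, beside 3.48 for the first. The difference of Krt14 was -0.30 (95% confidence interval -2.53 to 1.92, limma adjusted p = 0.927). Without that tumour the sign turned, to 0.86 (SE 0.33, limma adjusted p = 0.158), and Bptf KD 3 still lay below control 3.

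Krt5, its type II partner, was the basal keratin whose groups did not overlap. It had values of 6.96, 8.48 and 6.94 in controls and of 6.46, 6.53 and 6.57 in Bptf KD tumours. All 3 Bptf KD values were lower than every control value, a pattern seen in 8.17% of all genes tested. The difference was -0.94 (SE 0.40, limma adjusted p = 0.382) with all tumours and -0.43 (SE 0.10, limma adjusted p = 0.0698) without the tumour labelled control 2, while that tumour's excess over controls 1 and 3 was 1.53. Without that tumour the 2 partner chains differed in opposite directions. The difference between the partners was not tested.

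Krt15, a keratin of basal and hair follicle stem cells, was 5.57, 7.23 and 5.79 in controls and 5.83, 5.98 and 6.20 in Bptf KD tumours. Apart from the tumour labelled control 2, whose value carried the gene over the dim level, all values were low. Trp63, the transcription factor of basal cells (p63), was dim by its mean, at 5.34, 6.86 and 5.38 in controls and 5.55, 5.70 and 5.84 in Bptf KD tumours. All 4 basal genes were thus highest in the tumour labelled control 2. Over the 3 tested basal genes the class mean was 6.68, 9.01 and 6.96 in controls and 7.17, 7.09 and 6.96 in Bptf KD tumours.

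**Figure D2:**
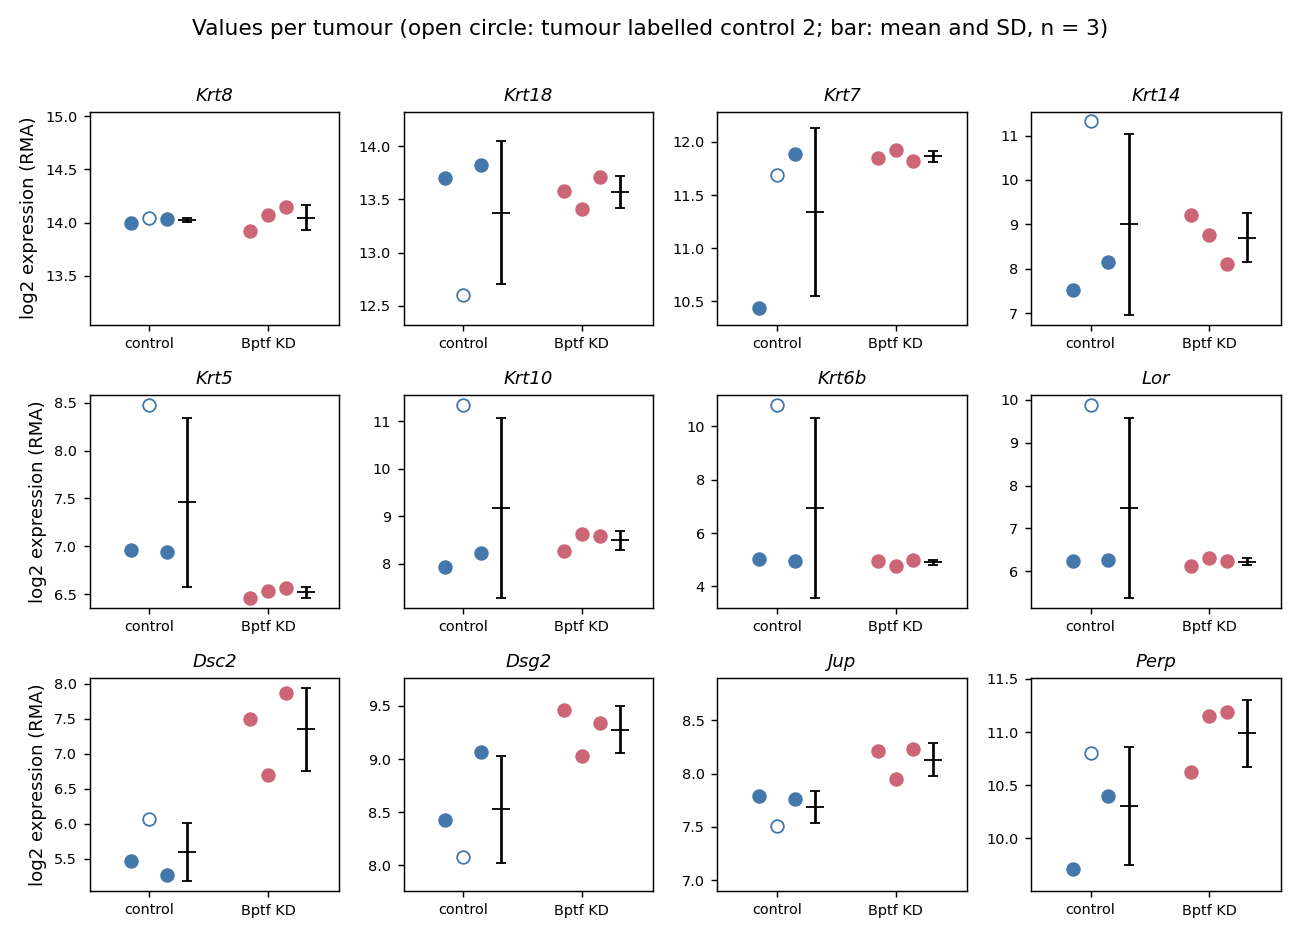
Log2 expression (RMA values, vertical axis) of 12 member genes in each control (blue) and Bptf KD (red) tumour, with the tumour labelled control 2 as an open circle and the mean and SD of each group (n = 3) as black bars; each panel has its own scale. Krt14, Krt5, Krt10, Krt6b and Lor are highest in that tumour, while the Bptf KD values of Dsc2 and Jup lie above all 3 controls.

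Inducible keratins such as Krt6, Krt16 and Krt17 are made by stressed, wounded or fast-growing keratinocytes. The class as listed also holds Krt75 and Krt79, whose induction was not assumed. Krt6b was high in a single tumour: it was 5.01, 10.82 and 4.96 in controls and 4.95, 4.77 and 4.97 in Bptf KD tumours. This 57.1-fold excess over the mean of controls 1 and 3 was the largest among the 66 members, and the dim level in the other tumours makes its size uncertain. Krt6a, a close paralogue whose probes may share targets with Krt6b, was 6.46, 7.33 and 6.41 in controls and 6.45, 6.26 and 6.44 in Bptf KD tumours on its brightest probe set. A second Krt6a probe set, dim by its mean of 6.08, showed a larger excess in the tumour labelled control 2, of 3.48 against 0.895. Krt16 and Krt17, type I partners of Krt6, were dim and highest there too, at 6.66 against 5.63 to 5.84 and at 5.98 against 4.92 to 5.33.

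Of the 6 suprabasal keratins, Krt1, Krt10 and Krt2 were at least 2-fold higher in the tumour labelled control 2 than the mean of controls 1 and 3. Krt1 had values of 4.57, 10.10 and 4.32 in controls and of 4.45, 4.55 and 4.60 in Bptf KD tumours. Its partner Krt10 had values of 7.94, 11.35 and 8.23 in controls and of 8.27, 8.63 and 8.58 in Bptf KD tumours. In that tumour both chains of the pair were high, by 50.4-fold for Krt1 and 9.61-fold for Krt10. In the other 5 Krt10 stayed above the dim level and Krt1 was below it, which makes the size of the Krt1 fold uncertain. The difference of Krt10 was -0.68 (SE 0.84, limma adjusted p = 0.795) and turned to 0.41 (SE 0.16, limma adjusted p = 0.156) without that tumour, with the 3 Bptf KD values then above both controls, as in 27.6% of all genes. Krt2, of the upper epidermis, was 6.25 there and 3.53 to 3.80 in the others. Krt4, Krt13 and Krt77 showed no such excess (0.135, 0.015 and 0.125). Krt4 and Krt13 are keratins of internal stratified epithelia.

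Hair keratins build the shaft and sheaths of the hair. Of 16 with a probe set 8 were dim, and none was 2-fold higher in the tumour labelled control 2, whose excess ran from -0.64 to 0.545 over the class. The 8 tested had differences from -0.22 to -0.05, and limma called 0 of them (adjusted p from 0.463 to 0.904, 0 at an unadjusted p under 0.05). All 8 were negative with all tumours, and 3 of the 8 turned positive with array weights. Krt84 was the only one with separate groups, with controls at 6.38 to 6.50 and Bptf KD tumours at 6.15 to 6.30, a separation in this direction seen in 8.17% of all genes. Without the tumour labelled control 2, 3 members (Krt5, Krt84 and Krt80) were separate in this direction, against 18.9% of all genes. The dim member Krt25 was 5.12 in control 1 and 3.98 to 4.32 elsewhere. Among the remaining keratins, Krt80, a type II chain found near desmosomes, lay at 7.24 to 7.44 in controls against 6.92 to 7.16 in Bptf KD tumours (difference -0.24, limma adjusted p = 0.504). Krt88 differed by 0.0033, and Krt12, the corneal keratin, and Krt23 were dim. Krt2, Krt25, Krt80 and Krt84 were chosen after their values were seen.

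Dsc2 and Dsg2, both desmosomal cadherins, had the largest positive differences among the 34 members tested with all 6 tumours and no array weights. Without the tumour labelled control 2, Perp (0.93), Krt14 (0.86) and Krt7 (0.70) exceeded Dsg2 (0.53), and with the mean of probe sets Perp did. Perp also exceeded Dsg2 without Bptf KD 1 (0.87 against 0.66). With array weights Krt14 (0.64), Perp (0.60) and Jup (0.398) exceeded Dsg2 (0.385). The cadherins Dsc1 and Dsc3 were dim. Dsc2, the desmocollin of simple and many other epithelia, had log2 values of 5.46, 6.06 and 5.26 in controls and of 7.49, 6.70 and 7.86 in Bptf KD tumours. The lowest Bptf KD tumour lay 0.64 above the highest control, and groups separated in this direction in 11.8% of all genes tested. Group means were 5.59 ± 0.42 and 7.35 ± 0.59 (SD, n = 3 each), a difference of 1.76 (SE 0.34), or 3.38-fold. It did not pass over all genes (limma adjusted p = 0.0835; range over 15 alternatives 0.00227 to 0.284). Without the tumour labelled control 2, the highest control, Dsc2 rose by 1.99 and passed (SE 0.31, limma adjusted p = 0.0257). It also passed with array weights (limma adjusted p = 0.00227), a fit in which limma reported no convergence. The control mean lies below the dim level, so the size of the fold is uncertain, and the gene passed that level through its Bptf KD values. Its second probe set, dim throughout, gave 4.93, 5.25 and 4.78 in controls and 5.63, 5.19 and 5.50 in Bptf KD tumours, a difference of 0.45, with Bptf KD 2 below the tumour labelled control 2.

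Dsg2, the desmoglein of simple epithelia, had values of 8.43, 8.08 and 9.07 in controls and of 9.46, 9.03 and 9.34 in Bptf KD tumours. Control 3 lay just above Bptf KD 2, so the groups overlapped, and the tumour labelled control 2 was the lowest. The difference of 0.75 (SE 0.26, 1.68-fold) did not pass (limma adjusted p = 0.297) and was 0.53 without that tumour. The 4 of its 6 probe sets above the dim level gave differences from 0.32 to 0.95, all positive. Dsc1 and Dsc3, desmocollins of stratified epithelium, lay at 4.09 to 4.29 and at 5.28 to 5.81.

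In the desmosomal plaque, Jup was the member with separate groups. With all tumours, 2 of the 34 members tested (Dsc2 and Jup) had Bptf KD values above every control, against 11.8% of all genes. Jup (plakoglobin), which binds the tails of both cadherin families, had values of 7.79, 7.51 and 7.76 in controls and of 8.21, 7.95 and 8.23 in Bptf KD tumours. Group means were 7.69 ± 0.15 and 8.13 ± 0.16 (SD, n = 3 each), a difference of 0.44 (SE 0.14, 1.36-fold) that did not pass (limma adjusted p = 0.250; range over 17 alternatives 0.0298 to 0.661, with 1 pass, under array weights). It was 0.36 without the tumour labelled control 2. Perp, a membrane protein of desmosomes and a target of p53, had values of 9.71, 10.80 and 10.40 in controls and of 10.62, 11.15 and 11.19 in Bptf KD tumours. Bptf KD 1 lay below the tumour labelled control 2, and control 1 was the lowest of all. The difference was 0.68 (SE 0.30, limma adjusted p = 0.395) with all tumours. Without the tumour labelled control 2 it was 0.93 (limma adjusted p = 0.0816), and the groups no longer overlapped. With that tumour left out, 7 of the 34 members were separate in this direction, against 27.6% of all genes.

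The 3 plakophilins, which link the plaque to desmoplakin, did not move alike. Pkp1, the plakophilin of the suprabasal epidermis, was 6.70, 8.67 and 6.88 in controls and 7.06, 6.99 and 7.12 in Bptf KD tumours, 3.68-fold above the mean of controls 1 and 3 in the tumour labelled control 2. Its difference turned from -0.36 to 0.27 without that tumour. Pkp2, the plakophilin of simple epithelium and heart, was 9.03, 9.89 and 9.51 in controls and 9.34, 9.42 and 8.94 in Bptf KD tumours (difference -0.24, limma adjusted p = 0.736). Pkp3, found in most epithelia, was 8.27, 8.38 and 8.41 in controls and 8.32, 8.80 and 9.08 in Bptf KD tumours, with Bptf KD 1 within the control range (difference 0.38, limma adjusted p = 0.491).

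Dsp, the large linker from plaque to keratin, depended on the probe set. On the brightest it was 9.48, 10.03 and 9.56 in controls and 9.87, 9.58 and 10.04 in Bptf KD tumours, a difference of 0.14 (SE 0.20, limma adjusted p = 0.820). On another bright probe set the tumour labelled control 2 was 1.68 above the mean of controls 1 and 3, at 10.24 against 8.47 to 9.06 in the other 5, and the difference was -0.27. Over the 6 plaque genes, all above the dim level, 4 differences were positive, with a median of 0.26. Limma called 0, with 1 higher at an unadjusted p under 0.05. Over all genes, 59.6% were positive and 7.65% were higher at that unadjusted level.

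**Figure D3:**
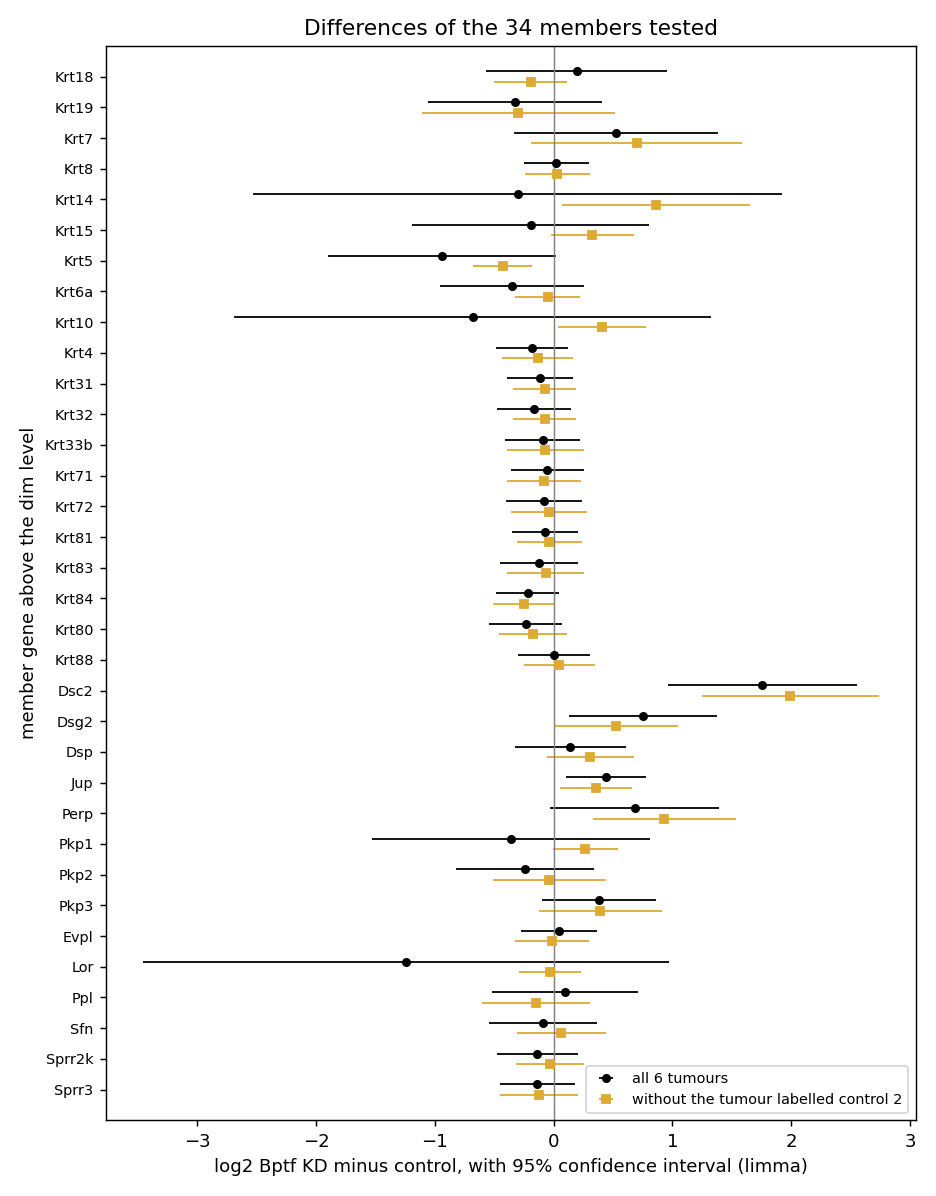
Differences of the 34 tested members (log2 Bptf KD minus control on the horizontal axis, 1 gene per row) with 95% confidence intervals from limma, with all 6 tumours (black) and without the tumour labelled control 2 (yellow). The intervals of Krt14, Krt10 and Lor shrink and their centres move without that tumour, while Dsc2 stays near 2 (1.76 and 1.99).

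Genes of the cornified envelope split into a few that were high in the tumour labelled control 2 and a larger number that were flat or dim. Lor (loricrin), the main envelope protein, had values of 6.25, 9.89 and 6.27 in controls and of 6.13, 6.30 and 6.25 in Bptf KD tumours. The tumour labelled control 2 was 12.4-fold above the mean of controls 1 and 3, and the other 5 lay within 0.17 of each other. The difference was -1.24 (SE 0.93, limma adjusted p = 0.646), and -0.03 without that tumour. Krtdap, a protein of differentiating keratinocytes, was 5.32, 9.05 and 5.61 in controls and 4.96, 5.12 and 5.45 in Bptf KD tumours. Sprr2d was 6.83 in the tumour labelled control 2 and 5.42 to 5.63 in the others.

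No other envelope gene with a probe set of its own showed such an excess. Probe sets shared by several Sprr2a genes fell outside the membership rule. They were 9.17 in the tumour labelled control 2 against 6.69 to 6.88 in the others, and 9.12 against 6.99 to 7.46. These shared probe sets were chosen after their values were seen. Ivl (involucrin), an early envelope scaffold, was dim in all tumours, at 5.54 to 5.79. Sprr1a was dim, at 5.79 in the tumour labelled control 2 and 4.91 to 5.43 in the others. Evpl (envoplakin) was 6.61 in that tumour and 6.62 to 6.95 in the others. Ppl (periplakin), its partner, was lowest there, at 7.44 against 7.87 to 8.40. Sfn (14-3-3 sigma), an adaptor of epithelial cells, was 6.59, 7.30 and 7.07 in controls, with Bptf KD tumours at 6.86 to 6.95. The differences of Evpl, Ppl and Sfn were 0.04, 0.10 and -0.09 (limma adjusted p from 0.879 to 0.927), and each changed its sign without the tumour labelled control 2. Sprr2k and Sprr3 both differed by -0.14. Limma called 0 of the 6 tested envelope genes, with 0 at an unadjusted p under 0.05.

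Most envelope genes with a matched promoter hold 2 sequence motifs upstream of their starts. RefSeq promoters of the build GRCm38.p6 were matched for 39 of the 66 members, and the 250 bases before each start were searched on both strands for TGANTCA, the core of AP-1 sites, and for TATAAA, the TATA box. Of the 12 envelope genes with a promoter, 10 held TGANTCA and 11 held TATAAA, against 1 and 12 of the 25 matched among the keratins and Trp63. Among these keratins the hair class was close to the envelope for TATAAA, with 9 of 11, and held TGANTCA in 0. Sfn, an envelope gene, held neither motif. Many of the 12 envelope genes are Sprr genes, all on chr3, and related genes are not independent. Of the 27025 genes with a promoter, 7.82% held TGANTCA and 14.3% held TATAAA. Of the 3 envelope genes that were at least 2-fold higher in the tumour labelled control 2 all 3 held TGANTCA, and of the other 9 with a promoter 7 did, so its presence was not limited to those with the excess. Neither motif overlaps the other in the sequences shown. They are given for the 3 high genes Lor, Krtdap and Sprr2d, for Ivl as an envelope gene that was dim throughout, for Krt10 as a suprabasal keratin without TGANTCA and for Jup as the plaque gene with separate groups, with both motifs in capitals.
Lor, chr3:92083143-92083392, minus strand: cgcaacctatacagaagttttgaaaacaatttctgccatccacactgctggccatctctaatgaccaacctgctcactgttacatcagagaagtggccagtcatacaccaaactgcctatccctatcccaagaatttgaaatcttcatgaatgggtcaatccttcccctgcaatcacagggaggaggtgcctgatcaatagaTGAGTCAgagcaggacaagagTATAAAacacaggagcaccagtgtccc
Krtdap, chr7:30787655-30787904, plus strand: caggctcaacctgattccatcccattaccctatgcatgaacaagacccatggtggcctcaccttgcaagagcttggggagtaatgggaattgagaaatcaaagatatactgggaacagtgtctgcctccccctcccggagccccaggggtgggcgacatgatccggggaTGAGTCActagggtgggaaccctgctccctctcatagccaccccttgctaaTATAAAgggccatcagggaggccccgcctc
Sprr2d, chr3:92338890-92339139, plus strand: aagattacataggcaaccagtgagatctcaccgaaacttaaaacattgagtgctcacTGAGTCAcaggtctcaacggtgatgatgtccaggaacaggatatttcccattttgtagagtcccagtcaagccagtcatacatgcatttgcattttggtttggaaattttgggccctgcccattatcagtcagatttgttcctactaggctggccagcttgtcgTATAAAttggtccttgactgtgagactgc
Ivl, chr3:92573736-92573985, minus strand: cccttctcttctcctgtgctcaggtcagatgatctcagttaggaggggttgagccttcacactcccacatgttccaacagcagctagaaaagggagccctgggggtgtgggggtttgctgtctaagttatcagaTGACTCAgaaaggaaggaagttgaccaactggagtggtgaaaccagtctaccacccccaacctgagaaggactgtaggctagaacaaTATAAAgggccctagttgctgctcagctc
Krt10, chr11:99389365-99389614, minus strand: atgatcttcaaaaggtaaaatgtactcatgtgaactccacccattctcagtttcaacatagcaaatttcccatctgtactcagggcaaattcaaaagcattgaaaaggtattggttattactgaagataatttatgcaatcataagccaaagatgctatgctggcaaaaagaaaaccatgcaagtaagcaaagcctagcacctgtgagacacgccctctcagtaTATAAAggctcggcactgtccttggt
Jup, chr11:100397791-100398040, minus strand: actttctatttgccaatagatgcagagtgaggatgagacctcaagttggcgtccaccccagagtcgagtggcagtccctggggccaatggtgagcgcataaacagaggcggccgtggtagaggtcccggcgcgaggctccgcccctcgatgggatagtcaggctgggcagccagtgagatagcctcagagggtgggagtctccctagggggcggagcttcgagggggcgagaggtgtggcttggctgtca
The TATAAA of Lor, Krtdap, Sprr2d, Ivl and Krt10 begins between -30 and -26 from the start, and the TGANTCA of the first 4 at -48, -81, -193 and -116. The Jup window holds neither. A match is a run of letters, not a measured site of binding.

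Across the classes, the excess of the tumour labelled control 2 reached 2-fold in 4 of 4 basal, 1 of 6 inducible and 3 of 6 suprabasal genes, 1 of 6 plaque genes and 3 of 15 envelope genes. No simple epithelial, hair or other keratin and no desmosomal cadherin reached it. Among the basal genes, Trp63 reached it on its brightest probe set only. Krt75 and Krt79, which the list placed in the inducible class, had an excess of 0.055 and 0.285. That tumour exceeded the mean of controls 1 and 3 by 2-fold or more in 12 of the 66 members, against 3.06% of all 12393 genes: Krt5, Krt14, Krt15, Trp63, Krt6b, Krt1, Krt2, Krt10, Pkp1, Krtdap, Lor and Sprr2d. It was the highest of the 6 tumours in 32 of the 66 members, against 30.9% of all genes. Krt18 was the only member at least 2-fold below, against 4.24% of all genes. These counts compare 1 tumour with 2 others and carry no test. The median excess was 1.54 for the basal class, 1.36 for the suprabasal class and 0.825 for the inducible class and 0.565 for the plaque, against 0.025 for the simple epithelial class, 0.0725 for the hair class and 0.0650 for all genes.

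Epidermal genes outside the membership rule were high in the same tumour. Of 33 such genes with a probe set, 17 exceeded the mean of controls 1 and 3 there by 2-fold or more. The share over all genes was 3.06%. Flg (filaggrin), which bundles keratin in the granular layer, was 10.21 there and 3.23 to 3.40 in the other 5. Hrnr (hornerin), a relative of filaggrin, was 8.45 against 3.25 to 3.49, and the late envelope gene Lce1d was 8.17 against 3.62 to 3.89. None of 18 other hair follicle genes was at least 2-fold higher. Other genes of stratified epithelium went lower there. Of 8 hemidesmosome genes 2 were at least 2-fold higher (median excess -0.43), but Plec, Dst, Itga6 and Itgb4 had excesses of -1.255, -1.205, -1.125 and -1.06. Of 20 regulators 0 were (median -0.04), and Tfap2a, Gata3, Klf5 and Esrp1 had excesses of -2.215, -1.925, -1.75 and -1.475. Flg, Hrnr, Lce1d and the genes named from these 2 lists were chosen after their values were seen. Muscle markers were also high in that tumour, as given above, but unlike Flg they varied among the other 5. The muscle mean was 8.76 in control 1 and 9.13 in Bptf KD 1. In control 3 and Bptf KD 2 and 3 it lay between 6.30 and 7.35.

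**Figure D4:**
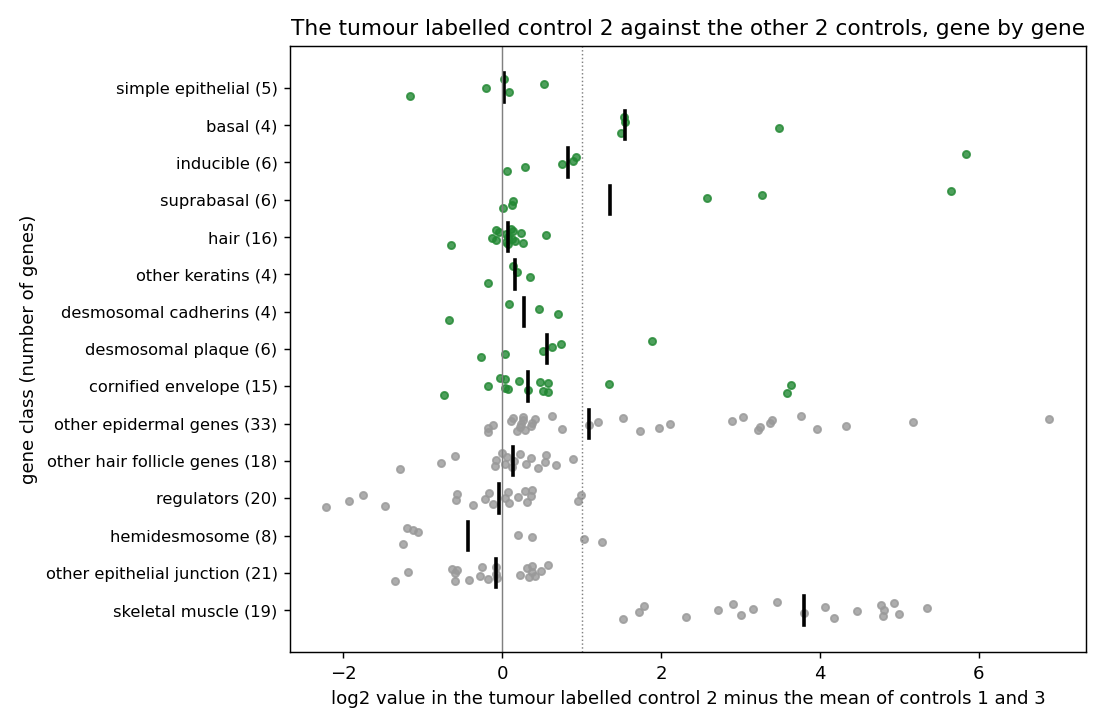
Each point is 1 gene: its log2 value in the tumour labelled control 2 minus the mean of controls 1 and 3 (horizontal axis), for the member classes (green) and other gene lists (grey), with the number of genes in brackets, the median as a black bar and a dotted line at a 2-fold excess. The basal and suprabasal classes, the other epidermal genes and skeletal muscle have medians beyond that line, at 1.54, 1.36, 1.10 and 3.80.

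Neighbouring parts of the epithelial programme gave a mixed picture in Bptf KD tumours. Of 19 tested genes of adherens and tight junctions and epithelial surface proteins, 16 differences were positive, against 59.6% of all genes. Their median was 0.58, against 0.0600 over all genes. Limma called 1 of the 19, against 0.811% of all genes. That gene, Marveld3, a tight junction protein, rose. Its controls lay at 5.81 to 5.95 and every Bptf KD tumour at 6.73 or above (difference 0.98, SE 0.13, limma adjusted p = 0.0355). All 3 of its control values are below the dim level, so it passed that level through its Bptf KD values and the size is uncertain. Cldn4, Ocln and Cldn3, also of tight junctions, differed by 1.86, 1.67 and 1.20 (limma adjusted p from 0.107 to 0.151). Of the 19 genes, 10 were higher at an unadjusted p under 0.05, against 7.65% of all genes.

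Hemidesmosomes tie basal keratin to the matrix, and of 7 tested genes limma called 0, with 1 higher at an unadjusted p under 0.05. That gene, Lama3, a chain of laminin-332, was 6.47, 6.84 and 6.81 in controls and 7.19, 7.47 and 7.51 in Bptf KD tumours (difference 0.68, limma adjusted p = 0.129). Lama3 rose and Plec, the plectin linker, fell without the tumour labelled control 2 (0.75 and -1.27, limma adjusted p = 0.0493 and 0.0352). Of 16 tested regulators of stratified epithelium limma called 0. At an unadjusted p under 0.05, 3 were higher and 1 was lower: Cebpb (0.58), the splicing factor Esrp1 (1.34), Grhl2 (0.44) and Notch3 (-0.54). Over all genes, 7.65% were higher and 5.82% lower at that level. Notch3 fell without the tumour labelled control 2 (-0.67, limma adjusted p = 0.0336).

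Of 13 tested epidermal genes outside the rule limma called 0, with 1 higher (Lypd3, 0.60) and 2 lower (Lce3c, -0.35, and Dmkn, -2.34) at an unadjusted p under 0.05. The shares over all genes at that level were 7.65% higher and 5.82% lower. Dmkn (dermokine) was 6.54, 10.16 and 7.35 in controls and 5.88, 5.95 and 5.20 in Bptf KD tumours, and its difference was -1.27 (limma adjusted p = 0.0679) without the tumour labelled control 2. Of 8 tested intermediate filament genes other than keratins limma called 0, with 1 lower at an unadjusted p under 0.05 (Lmna, a lamin of the nucleus, -0.39). Vim (vimentin), the filament of mesenchymal cells, differed by -0.12 (limma adjusted p = 0.760). Markers of other cell types that moved with the group included those of fat cells (6 of 9 tested called lower by limma, median -2.85) and fibroblasts (5 of 9 called lower, median -1.22). Limma called 0.811% of all genes, counting both directions. The mean over the fat cell list lay at 10.1 to 10.9 in controls and at 7.01 to 7.97 in Bptf KD tumours, and that over the fibroblast list at 11.95 to 12.16 and at 10.67 to 11.02. Their part in the differences of Dsc2, Dsg2 and Jup was not tested.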

How the data were processed

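RNA of 6 tumours was measured on Affymetrix arrays, 1 per tumour. The deposited values are log2 values made by the authors with RMA (background correction, quantile normalisation and probe set summary), per the submitters' processing notes. Base 2 was assumed from their range of 2.98 to 15.17. Quantile normalisation gives the probes of every array 1 distribution before they are summarised, so a large block of genes in 1 tumour can shift others. After the summary the array medians still ran from 7.60, in the tumour labelled control 2, to 7.70. RMA gives no detection call, and the number of arrays limits the precision.

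By the platform annotation in GEO, 20380 probe sets had 1 gene, 691 had several and 1555 had none named. Entrez identifiers matched 20351 of them to RefSeq symbols (GRCm38.p6), and no symbol changed. The brightest probe set stood for a gene, and probe sets in the lowest 30% were left out. Bptf KD and control were compared with limma 3.58.1 in R 4.3.3 (lmFit, eBayes, no covariate, Benjamini-Hochberg over 9249 genes, threshold 0.05). Tested on simulated data for this comparison (9249 genes, 200 changed), the fit found 58.2% of 1-unit and 89.6% of 2-unit log2 changes, and 4.88% of its calls were false. The simulated noise was independent between genes, and no simulated array stood apart as the tumour labelled control 2 did. These rates may therefore not hold for the real arrays.

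Members, classes and other lists were chosen with earlier results of these data known. Named members are those fixed by name, the 5 largest differences each way and the 5 largest excesses in the tumour labelled control 2. The largest differences and excesses were taken among the 34 members tested, and dim members such as Krt6b had larger excesses. Members named outside this rule, Krt6b and Sprr2d among them, were chosen after their values were seen. In the lists of other genes, up to 4 genes with the smallest p were named per list. Vim was named outside this rule, as were genes given for their values in the tumour labelled control 2. The tumours are biological triplicates per the labels, and the sources used here do not say whether each had its own mouse. An exact permutation test of 3 against 3 cannot go below p = 0.1. Coordinates are those of the RefSeq promoters only.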

Additional observations from a re-analysis of the deposited data

How the results depend on the processing

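No member was called with all tumours except under array weights, where limma, warning of no convergence, called 2 members (Dsc2 and Jup) and 1680 of all genes. Leaving out each tumour in turn gave 0 to 1 members called and 0 to 412 of all 9249 genes: 412 without the tumour labelled control 2, 73 and 10 without controls 1 and 3, and 2, 6 and 0 without Bptf KD 1, 2 and 3. The stricter filter left 42 genes called and a fit with every probe set 40, against 75. The class mean difference of the desmosomal cadherins was 1.25, and 0.62 with no filter, 0.75 with the stricter filter and 0.53 with the mean of probe sets. That of the envelope was -0.24, and 0.097 with the stricter filter, which left 1 gene. Signs turned with array weights for Krt8 (-0.0052), Krt18 (-0.19), Krt14 (0.64), Krt15 (0.17), Krt10 (0.16) and Pkp1 (0.15). Dsp turned to -0.017 with the mean of probe sets and to -0.27 with the largest SD or without cross-match probe sets. With 1 tumour left out, the differences ran from -0.028 to 0.087 for Krt8, -0.19 to 0.42 for Krt18, -0.64 to 0.010 for Krt19, -1.05 to 0.86 for Krt14, -0.51 to 0.32 for Krt15, -1.30 to 0.41 for Krt10, -0.72 to 0.27 for Pkp1, -0.29 to 0.063 for Sfn, -0.047 to 0.12 for Evpl and -0.15 to 0.33 for Ppl. The cause of these changes was not tested. Dsc2, Dsg2, Jup, Perp, Pkp3 and Krt7 stayed positive and Krt5, Krt6a, Lor and Pkp2 negative in every alternative that gave a value. Some of these differences became very small, as far as -0.033 for Lor, -0.043 for Krt6a, -0.037 for Pkp2 and 0.073 for Krt7. Lor and Krt6a gave a value in 14 alternatives each, and Krt7 and Pkp2 in 17. The sources used here do not say whether same-numbered tumours were handled together. Their deviations correlated at 0.0055, 0.279 and 0.372, and the replicate block gave 107 calls, against 75, and 0 members called. A shared batch or pairing was not tested.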
